A study of Homo sapiens with 2 samples.

Results

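The 10 genes described here encode proteins of the piRNA pathway: PIWIL1, PIWIL2, PIWIL4, TDRD1, TDRD5, TDRD6, TDRD9, MAEL, DDX4 and MOV10L1. They were chosen by name, out of 15821 protein-coding genes with an annotated start on chromosomes 1 to 22 and X. Each gene was taken from its RefSeq interval on hg38, extended by 5000 bp on either side. All 10 lie on the plus strand, and they have 14 annotated starts between them, out of 21558 starts of all those genes. PIWIL1, PIWIL2, PIWIL4, TDRD5, TDRD9 and MOV10L1 have 1 start each, and TDRD1, TDRD6, MAEL and DDX4 have 2 starts more than 500 bp apart. Starts were numbered in the direction of transcription.

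The samples were 2 replicates of 1 group, the human embryonic stem cell line H9, labelled pluripotent and grown on Matrigel in mTeSR, and no treated group was included. Chromatin was studied by ATAC-Me, in which a transposase cuts open chromatin and the fragments are then read for methylated cytosines. Each replicate thus gave methylated and total reads at the CpGs it covered. These were 31.2% of the listed CpGs in replicate 1 and 58.3% in replicate 2. The 10 intervals together held 10087 CpGs, with 5937 reads in replicate 1 and 11883 reads in replicate 2 out of 29270697 and 52758656 reads in all. The deposited peak list, 1 list for the group, marks open chromatin. As a check of the cell type, 5 of 6 measured starts of 5 pluripotency genes (SOX2, NANOG, DNMT3B, LIN28A and SALL4) were under 20% methylated and all 6 carried a peak. Over all measured autosomal starts, 88.6% were under 20% and 77.4% carried a peak, so these counts do not set the pluripotency genes apart. The exception was a second start of DNMT3B, at 43.9% and 49.7%. The start of POU5F1 had no reads.

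PIWI proteins bind small guide RNAs called piRNAs and silence transposons in germ cells. In the mouse male germ line they also direct new DNA methylation to transposon sequences. Tudor domain proteins gather PIWI proteins into germ granules, and RNA helicases prepare the piRNA precursors. The genes of the pathway are known for expression restricted to germ cells and for CpG-rich promoters that carry methylation in somatic cells.

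RefSeq promoter sequences (GRCh38.p14, 250 bases before to 50 bases after an annotated start, plus strand, 5′ to 3′) are shown for starts whose methylation differs within 1 gene or that are methylated at high CpG density. CpGs are in capitals. Both MAEL starts and the second start of TDRD1 are shown because these genes have starts in different states, and MOV10L1 and TDRD5 because they are methylated and have the most reads among the methylated starts without a peak. In the order printed the windows are chr1:166975332-166975631, chr1:166989030-166989329, chr10:114179037-114179336, chr22:50089756-50090055 and chr1:179591582-179591881.
MAEL start 1: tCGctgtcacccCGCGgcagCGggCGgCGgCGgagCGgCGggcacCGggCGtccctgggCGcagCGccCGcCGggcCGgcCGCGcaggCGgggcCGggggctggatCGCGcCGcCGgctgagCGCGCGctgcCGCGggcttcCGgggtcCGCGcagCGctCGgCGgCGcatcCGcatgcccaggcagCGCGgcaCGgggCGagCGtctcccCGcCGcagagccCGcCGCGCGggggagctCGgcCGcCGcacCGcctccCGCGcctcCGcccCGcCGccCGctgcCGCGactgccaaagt
MAEL start 2: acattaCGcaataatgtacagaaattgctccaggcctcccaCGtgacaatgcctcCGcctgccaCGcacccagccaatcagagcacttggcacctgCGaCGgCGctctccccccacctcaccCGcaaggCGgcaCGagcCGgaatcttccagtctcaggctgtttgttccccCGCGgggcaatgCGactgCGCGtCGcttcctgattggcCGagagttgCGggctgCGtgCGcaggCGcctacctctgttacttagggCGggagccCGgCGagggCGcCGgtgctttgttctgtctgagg
TDRD1 start 2: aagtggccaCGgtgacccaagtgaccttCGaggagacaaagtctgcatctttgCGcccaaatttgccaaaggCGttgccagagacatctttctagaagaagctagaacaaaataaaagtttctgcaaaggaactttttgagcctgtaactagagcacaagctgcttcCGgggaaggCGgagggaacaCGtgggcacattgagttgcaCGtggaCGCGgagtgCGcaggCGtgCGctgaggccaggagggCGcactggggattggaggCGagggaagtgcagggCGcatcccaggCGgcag
MOV10L1: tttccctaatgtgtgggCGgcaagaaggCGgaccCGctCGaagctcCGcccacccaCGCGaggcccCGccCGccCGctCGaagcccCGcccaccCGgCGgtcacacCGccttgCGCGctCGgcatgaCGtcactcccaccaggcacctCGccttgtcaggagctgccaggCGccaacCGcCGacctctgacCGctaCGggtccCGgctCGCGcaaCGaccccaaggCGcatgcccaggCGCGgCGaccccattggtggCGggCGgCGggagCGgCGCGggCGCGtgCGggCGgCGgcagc
TDRD5: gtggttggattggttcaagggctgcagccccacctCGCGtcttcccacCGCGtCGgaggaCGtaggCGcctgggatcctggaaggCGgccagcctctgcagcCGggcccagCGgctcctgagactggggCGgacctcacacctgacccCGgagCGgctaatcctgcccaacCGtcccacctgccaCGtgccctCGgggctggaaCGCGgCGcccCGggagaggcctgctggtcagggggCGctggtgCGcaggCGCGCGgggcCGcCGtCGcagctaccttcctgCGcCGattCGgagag

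The first MAEL sequence holds 60 CpGs and the second 27. Within the printed bases, 1 of 364 reads was methylated at the first MAEL start in replicate 1 and 4 of 278 in replicate 2. At the second MAEL start, 45 of 62 reads were methylated in replicate 1 and all of 31 in replicate 2. The TDRD1 sequence holds 17 CpGs, with 13 of 21 and 23 of 31 methylated reads in the replicates. The MOV10L1 sequence holds 44 CpGs, with 28 of 32 and 150 of 155 methylated reads. The TDRD5 sequence, at the second of 2 start positions that lie within 500 bp of each other and were merged, holds 31 CpGs, with 14 of 17 and 107 of 125 methylated reads. The first MAEL start was thus nearly free of methylation over a CpG-dense stretch, while the other 4 stretches were mostly methylated.

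Of the 9 starts of these genes with enough reads, 5 were methylated and had no peak. The measure is the share of methylated reads over the CpGs within 500 bp of a start. A start counted as measured with at least 20 reads in each replicate, as methylated with over 80% in both and as unmethylated with under 20% in both. Of the 14 starts, 9 were measured, in 7 genes, while 71.5% of all autosomal starts were measured. Of these 9, 6 were methylated, 2 unmethylated and 1 between these limits. Over the 14750 measured autosomal starts of all genes in the promoter table, 2.95% were methylated, 88.6% unmethylated and 8.42% between. A peak overlapped the 1001 bp window at 2 of the 14 starts, PIWIL2 and the first start of TDRD1, against 55.7% of all autosomal starts. Both open starts were among the 9 measured ones, and 77.4% of all measured autosomal starts were open. The median of the 9 measured starts was 88.3%, against 1.24% over all measured starts. No test was made of these counts, since the genes form a list chosen by name and the study has 1 group.

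**Figure D1:**
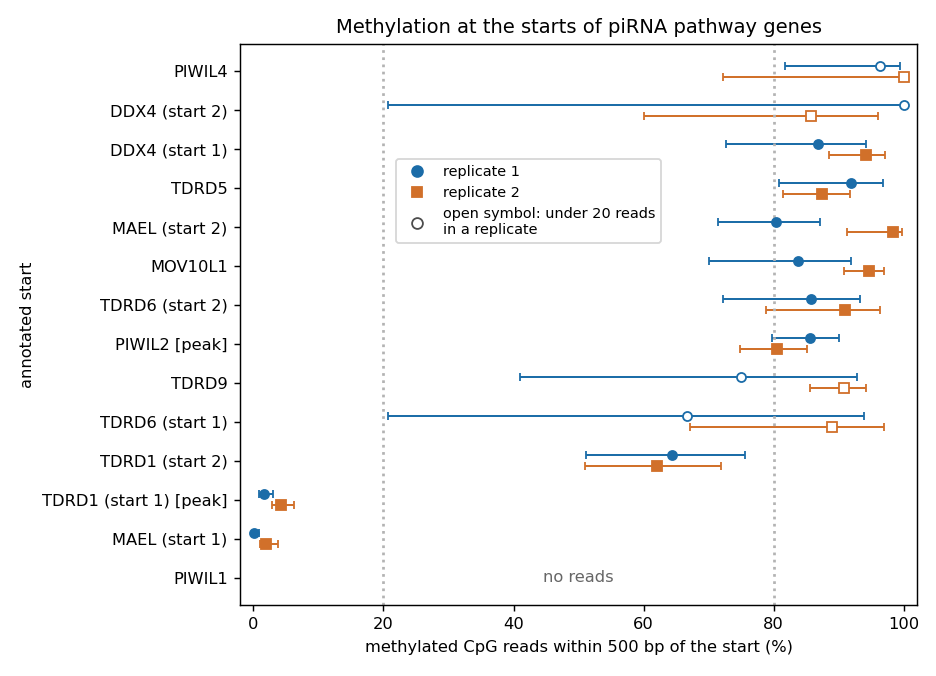
Methylated share of CpG reads within 500 bp of each annotated start in percent, by replicate, with 95% Wilson intervals. Dotted lines mark 20% and 80%, "[peak]" marks a start with a peak, and PIWIL1 has no reads. The first starts of MAEL and TDRD1 sit under 5% in both replicates and 6 of the measured starts (filled symbols) sit over 80% in both. Open symbols mark starts with under 20 reads in a replicate.

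PIWIL2 was the only measured PIWI gene, and its start was both methylated and open. PIWIL2, whose mouse form Mili binds piRNAs in male germ cells, read 85.6% methylated in replicate 1 (155 of 181 reads, 95% Wilson interval 79.8% to 90.0%) and 80.4% in replicate 2 (185 of 230 reads, 74.8% to 85.04%), a mean of 83.04% ± 3.68 (SD, n = 2). The replicate 2 value lies just above the limit of 80%, and its interval spans it. With CpGs within 250 bp only, the start fell between the limits. Both readings include 1 CpG flagged as altered (x-marked), described below. Without it the 500 bp window had a mean of 86.6% and stayed methylated, and the 250 bp window was not read without it. The peak, at chr8:22275146-22275378, is 233 bp wide and covers the start, with its summit at −73 bp. Positions are counted from the start as 0, with negative values upstream. By the authors' peak signal it ranks 26718 of 46884, and its −log10 q is not above the median of the peaks. The near end of PIWIL2-DT, a long non-coding RNA gene upstream, lies at −154 bp, inside the peak.

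Within the PIWIL2 peak 82.4% of reads were methylated in replicate 1 (98 of 119 reads, 74.5% to 88.2%) and 76.3% in replicate 2 (132 of 173 reads, 69.4% to 82.02%), a mean of 79.3% ± 4.28 (SD, n = 2). By the limits used for starts, the peak itself thus lay between, with its x-marked CpG included. Its class without that CpG was not determined. All 16 CpGs of the peak had reads in both replicates. Over 70% in both replicates is seen in 1.32% of the 40703 measured autosomal peaks, and over 80% in both in 0.391%. The CpG at 8 bp was the least methylated in the peak, with 6 of 13 methylated reads in replicate 1 and 5 of 17 in replicate 2. It is the 1 CpG of the PIWIL2 window that the deposited data flag as altered (x-marked). Its low value may thus not be one of methylation, which was not tested. The CpG at −68 bp had 9 of 13 and 12 of 19 methylated reads, and the CpG at 13 bp had 10 of 11 and 13 of 13. Downstream of the peak, still within 500 bp, 91.7% (55 of 60 reads) and 91.5% (43 of 47 reads) were methylated. The values inside the peak, x-marked CpG included, were lower in both replicates. Their intervals overlapped those downstream, 81.9% to 96.4% and 80.07% to 96.6%.

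A methylated start under a peak was rare in these libraries. Of the 11423 measured autosomal starts with a peak in the promoter table, 5 were methylated in both replicates, or 0.0438%. PIWIL2 is not in that table and is not among them. The 5, named here after their values were seen, were DQX1, PRSS50, C5orf58, CDYL and ADAD2. PRSS50 and ADAD2, both known for expression in testis, had the most reads, with 82.2% and 80.2% methylation at PRSS50 and 83.8% and 86.3% at ADAD2 in the replicates.

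The starts of the other PIWI genes could not be classed. PIWIL4, whose mouse form Miwi2 acts in the nucleus and guides transposon methylation, had 26 of 27 methylated reads in replicate 1 and 10 of 10 in replicate 2, where it fell short of 20 reads, and no peak. PIWIL1, whose mouse form Miwi binds piRNAs late in sperm formation, had no read at any of the 91 CpGs around its start. The stretch without reads reached from 15.9 kb before to 33.001 kb after the start in replicate 1 and from 14.9 kb before to 25.8 kb after it in replicate 2, so the PIWIL1 start was not analysed here. Starts without a read in either replicate made up 4.56% of all autosomal starts.

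MAEL and TDRD1 each had an unmethylated first start and a more methylated second start. MAEL encodes maelstrom, a transposon silencing factor with an HMG box. Its first start (chr1, position 166975582) read 0.162% in replicate 1 (1 of 616 reads, 0.0287% to 0.914%) and 1.90% in replicate 2 (8 of 420 reads, 0.968% to 3.71%), a mean of 1.03% ± 1.23 (SD, n = 2). Its second start, 13698 bp downstream, read 80.4% (78 of 97 reads, 71.4% to 87.1%) and 98.4% (60 of 61 reads, 91.3% to 99.7%), a mean of 89.4% ± 12.7. The difference between the starts exceeded the spread between replicates. Neither had a peak. At the first start, 106 of 107 covered CpGs had no methylated read in replicate 1 and 96 of 104 in replicate 2. At the second, 22 of 37 and 44 of 45 covered CpGs had methylated reads only. Between the windows of the starts, 57.9% (11 of 19) and 76.2% (48 of 63) of reads were methylated.

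The first MAEL start is shared with a gene of another pathway. ILDR2, on the opposite strand, starts at −42 bp from it, so the methylation there is that of both starts. An unmethylated start without a peak was seen at 13.8% of the measured autosomal starts. Among the 2287 genes with 2 or more measured starts, 5.07% had both a methylated and an unmethylated one, as MAEL did. With CpGs within 250 bp only, the second MAEL start had a mean of 90.0% but was not over 80% in both replicates, so MAEL had no such pair.

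TDRD1, a Tudor protein that binds PIWI proteins in germ granules, read 1.56% (8 of 514 reads, 0.791% to 3.04%) and 4.24% (23 of 543 reads, 2.84% to 6.28%) at its first start (chr10, position 114174874), a mean of 2.90% ± 1.89 (SD, n = 2). Its second start, 4413 bp downstream, read 64.3% (36 of 56 reads, 51.2% to 75.5%) and 62.03% (49 of 79 reads, 51.00% to 71.9%), a mean of 63.2% ± 1.60, and had no peak. It was the only measured start between the limits, in both replicates. Reads at single CpGs there were mixed: 12 of 25 covered CpGs in replicate 1 and 17 of 34 in replicate 2 had both methylated and unmethylated reads, with at most 5 reads on a CpG.

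The peak at the first TDRD1 start also covers the start of a neighbouring gene. The peak at chr10:114173955-114174905 is 951 bp wide, ranks 1991 of 46884 by the authors' signal and has its summit at −538 bp. CCDC186, on the opposite strand, starts at −654 bp. The peak was 0.328% methylated (5 of 1523 reads) and 1.79% (26 of 1449 reads), a mean of 1.06% ± 1.04 (SD, n = 2). It ends at 31 bp. Inside it, the TDRD1 window read 0.6% and 1.54%. After the end of the peak, the remaining 10 CpGs of the window read 35.7% (5 of 14 reads, 16.3% to 61.2%) and 62.5% (15 of 24 reads, 42.7% to 78.8%). The low value of the first TDRD1 start thus came from the part of the window under the peak. With covered CpGs weighted equally in place of reads, it was 13.7%.

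**Figure D2:**
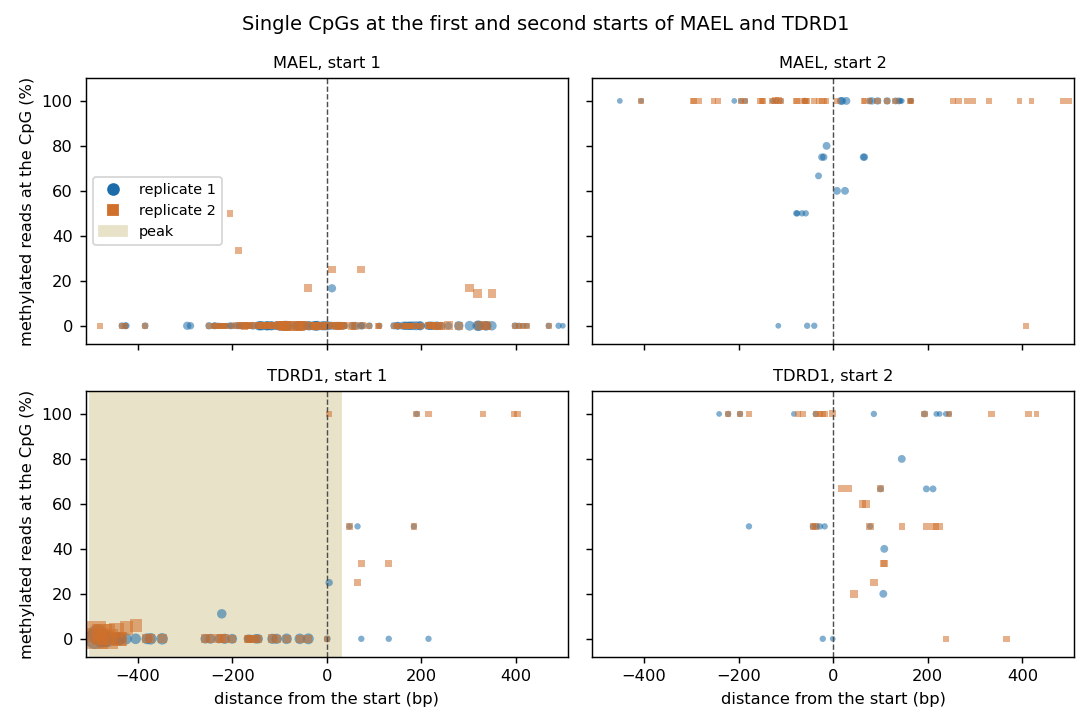
Methylated share of reads in percent at single CpGs within 500 bp of both starts of MAEL and TDRD1, by replicate, with larger points for more reads and the peak shaded. CpGs lie near 0% at the first MAEL start and under the peak at the first TDRD1 start, mostly at 100% at the second MAEL start, and are spread between 0% and 100% at the second TDRD1 start.

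The measured starts of the other Tudor genes were methylated and had no peak. TDRD5, which acts in piRNA production in the mouse testis, read 91.8% (45 of 49 reads, 80.8% to 96.8%) and 87.5% (140 of 160 reads, 81.5% to 91.8%), a mean of 89.7% ± 3.07 (SD, n = 2). TDRD6, a part of the chromatoid body of male germ cells, read 85.7% (36 of 42 reads, 72.2% to 93.3%) and 90.9% (40 of 44 reads, 78.8% to 96.4%) at its second start, a mean of 88.3% ± 3.67. That start lies on 91 CpGs, and an antisense gene, TDRD6-AS1, starts at −52 bp and at 280 bp from it. The first TDRD6 start had only 3 and 18 reads. TDRD9, a helicase with a Tudor domain that works with Miwi2 in the mouse, had 6 of 8 methylated reads in replicate 1, too few to be classed, and 157 of 173 in replicate 2, or 90.8% (85.5% to 94.2%).

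DDX4 and MOV10L1, the RNA helicases without Tudor domains, were methylated too. DDX4, also called VASA and used as a germ cell marker, read 86.8% (33 of 38 reads, 72.7% to 94.2%) and 94.2% (113 of 120 reads, 88.4% to 97.1%) at its first start, a mean of 90.5% ± 5.18 (SD, n = 2), the highest of the 9 measured starts. Its second start lies 28824 bp downstream on 11 CpGs and had 1 and 14 reads. MOV10L1, which binds piRNA precursors, read 83.7% (36 of 43 reads, 70.03% to 91.9%) and 94.6% (210 of 222 reads, 90.8% to 96.9%), a mean of 89.2% ± 7.69. The 6 methylated means lay between 83.04% and 90.5%. The intervals of these starts overlapped within each replicate except that of PIWIL2 in replicate 2, which lay below those of DDX4, MOV10L1 and the second MAEL start. Because reads are summed over CpGs, these intervals are too narrow, and whether PIWIL2 differs was not tested.

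The methylated starts were not CpG-poor. They held between 53 and 93 CpGs within 500 bp, while the first TDRD1 start, which was unmethylated, held 41 and the first MAEL start 109. The median over all autosomal starts was 59. Among the 11452 measured autosomal starts with at least 50 CpGs, 1.21% were methylated. All 6 methylated member starts were above that count of CpGs. These are CpGs in the sequence, and not all had reads. Replicates 1 and 2 covered 21 and 38 of 91 at the second TDRD6 start, and 29 and 84 of 93 at MOV10L1.

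**Figure D3:**
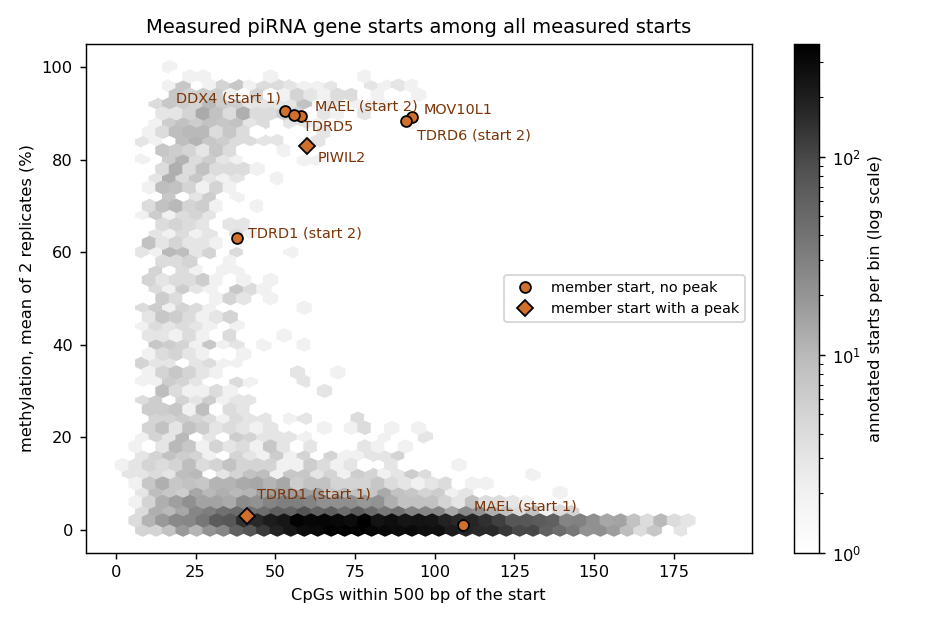
CpGs within 500 bp of a start against its methylation in percent, the mean of 2 replicates, for the 9 measured member starts (coloured) and the 14750 measured autosomal starts (grey, darker for more starts per bin, log scale). The 6 methylated member starts sit over 80% at 53 to 93 CpGs, where most other starts lie near 0%.

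Coverage was low where no peak was called. The first TDRD1 start had 12.5 and 13.2 reads per listed CpG in the replicates, which put it at percentiles 80.4 and 71.01 of all autosomal starts. The first MAEL start had 5.65 and 3.85 reads per CpG (percentiles 55.3 and 37.0), although no peak was listed there. PIWIL2, with its peak, had 3.02 and 3.83 (percentiles 41.6 and 36.9), no more than the first MAEL start. MOV10L1 had 0.462 and 2.39, and the second TDRD6 start 0.462 and 0.484. The medians over the 14 starts were 0.780 and 1.91, against 4.62 and 7.06 over all autosomal starts.

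Gene bodies were methylated in all 10 genes, and the first starts of MAEL and TDRD1 lay far below their own bodies, as autosomal starts commonly do. The body was taken from 2000 bp after a start to the end of the gene, so each start has its own body. Values per gene are those of the first start. Its mean over the replicates ran from 73.2% in MOV10L1 (69.7% and 76.7%) to 90.5% in TDRD6 (90.8% and 90.1%), with a median of 85.2%, against 81.3% over 12190 autosomal genes. PIWIL1, unread at its start, had a body methylation of 82.6% and 86.3% from 247 and 723 reads. The first start of MAEL lay below its body by −84.8 ± 5.16 percentage points and the first start of TDRD1 by −78.9 ± 2.67 (SD, n = 2), both larger than the spread between replicates. The median difference was −78.2 points over 13249 autosomal starts and −2.24 points over the 8 member starts with a measured body. The second TDRD1 start was also below the body that follows it, at −24.2 ± 0.991 points. Among the methylated starts with a measured body, MOV10L1 lay above its body by 16.0 ± 2.75 points and DDX4 by 5.66 ± 1.02, both higher in 2 of 2 replicates. TDRD5 (2.02 ± 4.97), the second MAEL start (0.956 ± 10.02) and PIWIL2 (−5.43 ± 7.69) differed from their bodies by less than the spread. No p is given, because with 2 replicates the smallest two-sided p of an exact sign-flip test is 0.5.

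**Figure D4:**
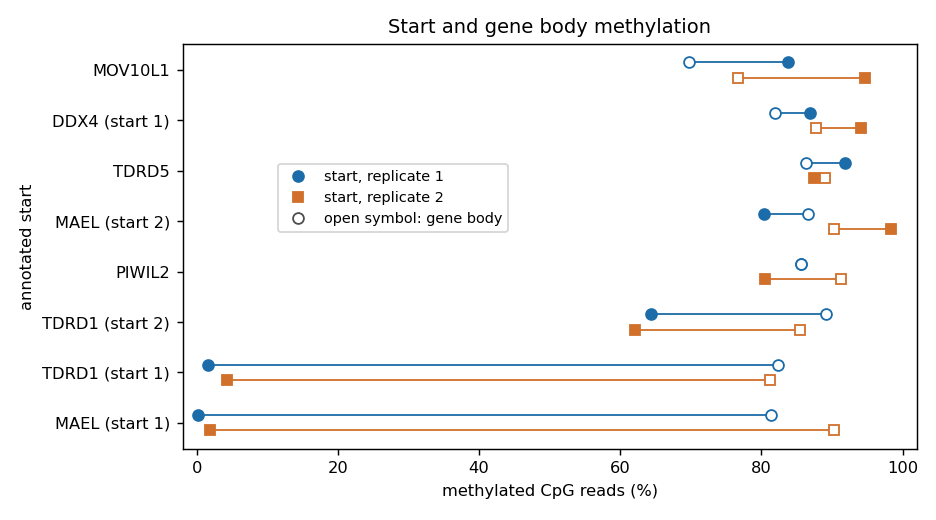
Methylated share of CpG reads in percent within 500 bp of a start (filled) and in the gene body after it (open) for the 8 starts with at least 20 reads in both places, by replicate. The first starts of MAEL and TDRD1 lie near 0% while every body lies between 69.7% and 91.3%. At PIWIL2 the filled and open symbols of replicate 1 coincide.

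The 10 extended intervals held 4 peaks, and of those away from starts only the peak within MOV10L1 was under 20% methylated in both replicates. Besides the peaks at PIWIL2 and TDRD1, a peak at chr22:50149177-50149421 lay within MOV10L1, 59.3 kb after its start, and read 6.74% (6 of 89 reads, 3.13% to 13.9%) and 7.76% (9 of 116 reads, 4.14% to 14.1%), a mean of 7.25% ± 0.719 (SD, n = 2). Its position is inside a gene whose body read 69.7% and 76.7%. A peak at chr11:94623203-94623449 lay 1904 bp past the end of PIWIL4, with 4 of 20 and 2 of 17 methylated reads over 3 CpGs. Under 20% in both replicates were 2 of the 4 peaks, at TDRD1 and within MOV10L1, against 70.2% of the measured autosomal peaks. The intervals of PIWIL1, TDRD5, TDRD6, TDRD9, MAEL and DDX4 had no peak.

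Of the starts of these genes, then, 1 was methylated with a peak (PIWIL2), 5 were methylated without one (the first start of DDX4, MOV10L1, TDRD5 and the second starts of TDRD6 and MAEL), 1 was unmethylated with a peak (the first start of TDRD1), 1 was unmethylated without one (the first start of MAEL) and 1 lay between without one (the second start of TDRD1). The remaining 5 starts had too few reads and no peak.

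Other genes of the pathway were split between both states. A list of 16 further genes had 18 starts, of which 13 were measured: 5 were methylated, 7 unmethylated and 1 between. The methylated ones were PLD6 (98.7% and 94.02%), a nuclease of piRNA production, ASZ1 (91.3% and 95.6%), TDRD12 (82.1% and 91.0%) and the second starts of RNF17 (92.6% and 96.1%) and PNLDC1 (89.2% and 91.1%). RNF17, a further Tudor gene, had the pattern of MAEL, with 2.38% and 2.86% at its first start. Unmethylated were also EXD1, HENMT1, which methylates piRNA ends, MYBL1, a transcription factor of piRNA genes in mouse testis, SPOCD1, TDRD7 and TDRKH, and all of these but TDRD7 had a peak. TEX15 lay between, at 24.6% and 51.5%. Whether this list differs from the 10 genes was not tested. Among broadly expressed relatives (AGO1, AGO2, AGO3, AGO4, MOV10, DDX3X, TDRD3 and SND1), 9 of 10 measured starts were unmethylated and 7 had a peak, against 88.6% and 77.4% of all measured autosomal starts. MOV10, the relative of MOV10L1, read 1.32% and 1.56% with a peak. The exception was the first start of AGO1, at 87.1% and 88.1%, and its second start read 1.75% and 5.09%. DDX3X lies on chromosome X, where no peak was listed.

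The promoter sequences were searched on both strands for 4 short motifs. The promoter table held 8 of the 10 genes with 11 sequences, and it holds none for PIWIL2 and PIWIL4. CACGTG, the E-box bound by basic helix-loop-helix factors, occurred in 4 of the 11, against 7.26% of all 35116 promoter sequences. It lay at −211 bp from the second MAEL start, at −67 bp from the TDRD5 start position printed above and at −65 and −45 bp from the second TDRD1 start. The fourth sequence is an overlapping TDRD1 window that holds the same pair. TCCCGC, an E2F motif, occurred in 5 of the 11, against 26.9% of all, at both MAEL starts (6 bp and 7 bp) and in PIWIL1, TDRD9 and MOV10L1. TGACGTCA, the cyclic AMP response element, was in MOV10L1 at −126 bp, against 1.85% of all, and ACCGTT, a MYB motif, was in none, against 3.32%. CACGTG contains a CpG, whose methylated reads were 1 of 2 in each replicate at the nearer E-box of TDRD1. These matches are descriptions of the printed letters.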

How the data were processed

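The authors deposited, for each replicate, a table without a header that gives for every CpG a methylation fraction and a count of covering reads, and for the group a peak list with a score, a signal, a summit and the −log10 of q-values. Trim Galore, Genrich and the build hg38 (GRCh38) are named in the submitters' processing notes. For the mapper, the methylation caller, duplicate removal and the pooling of replicates for peaks, nothing is given in the sources used here. Positions in the tables are counted from 0 and were moved to counts from 1, after CpGs in the promoter table matched at that offset.

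Methylated reads were the fraction times the reads, whole within 0.001 for at least 99.9986% of covered CpGs. CpGs without reads were left out. A region's reads are summed over CpGs, so fragments are fewer than reads, and Wilson intervals (95%) are too narrow and cover counting error only. Starts are those of the RefSeq promoter table plus the 5′ end of each gene, merged within 500 bp. PIWIL2, PIWIL4 and 8 genes used for comparison, which the table lacks, were given their well-known direction. All 10 members are named, with other pathway genes, relatives and motifs listed by name. Peaks needed at least 10 reads in each replicate. Members and lists were chosen with earlier results of these data known. Separate cultures are not stated for the replicates in the labels, and the SD between them may be technical. Alternatives covered windows, read minimums, limits, weighting, start choice, peak rules and each replicate left out. Python 3.11.15, numpy 2.4.6, pandas 2.3.3 and scipy 1.17.1 were used.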

Additional observations from a re-analysis of the deposited data

How the results depend on the processing

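The number of methylated member starts was 6 in the analysis reported and between 4 and 7 in 10 of 11 alternatives. It was 2 with at least 50 reads, where 4 of the 6 had too few reads. Within 250 bp, PIWIL2 and the second MAEL start fell between the limits and 4 stayed methylated. Unmethylated starts numbered 2 under all alternatives but promoter table starts alone, which leave out the first TDRD1 start and gave 1. Open starts numbered 2, and 1 with peaks above the median −log10 q, which drops the PIWIL2 peak, or with promoter table starts alone. The median start methylation of 88.3% was 84.8% within 250 bp and 55.2% with CpGs of at least 3 reads, where 5 starts were measured. It ran from 84.7% to 89.1% with a replicate left out, where 10 starts were measured. The median difference between start and body, −2.24 points over 8 starts, was −5.53 within 250 bp and changed sign to 0.770 with CpGs weighted equally. The cause of that change was not tested. With a replicate left out, the read minimum applied to 1 replicate only and more starts were measured. The median was then 2.44 over 10 starts without replicate 1 and 0.00318 over 9 starts without replicate 2. For the same 8 starts it was −3.06 in replicate 1 and −6.18 in replicate 2. Unmethylated peaks numbered 2 of 4 in the intervals, and 2 to 3 with a replicate left out. Apart from those with a replicate left out, which stay within 1 SD of a 2-replicate mean by construction, 61 of 71 values of 17 single starts and peaks moved by less than the spread between replicates and 10 by more. The 61 include values that could not move. These are the peak values at a higher read minimum and the values without x-marked CpGs at starts that hold none. Start choices and x-marked CpGs were added after the data were seen. No paired analysis was possible because there is 1 group. Of 14 starts, 5 had under 20 reads in a replicate.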
